A study of Mus musculus with 6 samples.

Results

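The chromatin around 10 chaperone and cochaperone genes that depend on heat shock factor 1 (HSF1) was described: Hspa4, Hspa4l, Dnaja1, Dnajb4, Hspb1, Bag3, Stip1, Ahsa1, Chordc1 and Cacybp. A peak of accessible chromatin was counted as theirs when the deposited table named the gene as the nearest and placed the peak at most 30000 bp from the transcription start site. This gave 132 of 175929 peaks, with at least 3 for every gene (Hspa4l) and at most 32 (Hspb1). Of these, 34 were promoter-proximal, which means within 3000 bp of a start site, and 98 lay farther away. The table measures each peak from the nearest annotated start, which for 3 Dnajb4 peaks was that of a longer transcript and for the Dnaja1 start-site peak that of another transcript.

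Accessibility came from ATAC-seq, where a transposase inserts adapters into open chromatin, of mouse leukaemia driven by AE9a, a truncated RUNX1-ETO fusion protein. All cells, controls included, carried AE9a, 1 floxed and 1 intact Usp18 allele (Usp18+/f) and UBCER-Cre, a tamoxifen-activated Cre under the broadly active ubiquitin C promoter. The leukaemia was transplanted, the recipients that had fallen sick received oil or tamoxifen, and GFP+ Lin- c-Kit+ cells were sorted from the spleen 3 days after the first injection. There were 3 libraries labelled Usp18+/f after oil (replicates 1, 2 and 4) and 3 labelled Usp18+/D after tamoxifen (replicates 1, 3 and 4). No group received tamoxifen without the floxed allele, so tamoxifen and the loss of 1 Usp18 allele cannot be told apart.

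HSF1 is the transcription factor that raises chaperone genes when proteins misfold. It binds heat shock elements, which are short repeats of the unit GAA or its complement TTC in alternating orientation, mostly close to the start sites of its targets. The products of the genes here work with the HSP70 and HSP90 chaperones: they load clients, drive or release nucleotides, or hold unfolded proteins in solution, and many cancer cells rely on them.

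The sequences below show the heat shock elements of 3 units found in member promoters and peak centres, and those of 2 units found before a start in the promoters. Other elements of 2 units are not printed, and a peak centre without an element follows. The sequences are shown so that the accessibility values can be read beside them. The 3-unit element was searched as GAANNTTCNNGAA and, on the other strand, TTCNNGAANNTTC, and the 2-unit elements as GAANNTTC and TTCNNGAA, each its own reverse complement and each contained in the 3-unit element. In RefSeq promoters (GRCm38.p6, 250 bases before to 50 after each start), all 10 genes had an entry, 13 in all. A 3-unit element was in 1 of the 13 (7.69%), that of Chordc1, against 0.603% of 32851 promoters. A 2-unit element was in 5 of the 13 (38.5%), those of Hspb1, Dnajb4, Dnaja1, Bag3 and Chordc1, against 15.1% of all promoters. The 150 bases before the start are printed on the strand of the gene for Hspb1, Dnajb4 and Dnaja1, whose elements lie there, with the element in capitals, while the Bag3 element begins 42 bases after its start. The Chordc1 site spans the start itself, and its capitals cover 3 overlapping 3-unit matches.
Hspb1, chr5:135887769-135887918, plus strand: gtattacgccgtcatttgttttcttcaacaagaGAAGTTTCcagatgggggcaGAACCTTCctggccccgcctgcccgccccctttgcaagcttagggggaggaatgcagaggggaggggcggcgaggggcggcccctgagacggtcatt
Dnajb4, chr3:152193846-152193995, minus strand: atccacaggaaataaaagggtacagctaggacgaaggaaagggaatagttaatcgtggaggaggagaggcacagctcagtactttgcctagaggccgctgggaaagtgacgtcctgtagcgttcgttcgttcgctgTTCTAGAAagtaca
Dnaja1, chr4:40722318-40722467, plus strand: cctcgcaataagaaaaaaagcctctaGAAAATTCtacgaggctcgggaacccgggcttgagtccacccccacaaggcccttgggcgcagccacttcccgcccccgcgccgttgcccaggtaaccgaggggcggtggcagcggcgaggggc
Chordc1, chr9:18292260-18292288, plus strand: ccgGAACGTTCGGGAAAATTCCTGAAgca

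In the 200 bases at the centre of each peak, a 3-unit element was in 3 of the 132 member peaks (2.27%), against 0.270% of 175738 peaks with sequence. These were the start-site peak of Dnaja1, a peak 16149 bp after the Hspb1 start and a peak 15253 bp after the Ahsa1 start, in an intron of the neighbouring gene Ism2. A 2-unit element was in 16 (12.1%), against 8.25% of all peaks. The 3-unit sites are printed with their flanks, again with the element in capitals. A search for 3-unit and 2-unit elements found none in the centre of either peak that passed the test described below. The centre of the passing Dnaja1 peak is printed for that reason.
Dnaja1 start-site peak, chr4:40722526-40722554, plus strand: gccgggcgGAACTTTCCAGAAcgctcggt
Hspb1 farther peak, chr5:135904130-135904190, plus strand: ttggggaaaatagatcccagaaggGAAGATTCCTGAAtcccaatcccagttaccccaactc
Ahsa1 farther peak, chr12:87281872-87281932, plus strand: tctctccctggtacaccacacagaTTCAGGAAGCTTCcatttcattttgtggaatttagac
Dnaja1 passing peak, centre, chr4:40729147-40729346, plus strand: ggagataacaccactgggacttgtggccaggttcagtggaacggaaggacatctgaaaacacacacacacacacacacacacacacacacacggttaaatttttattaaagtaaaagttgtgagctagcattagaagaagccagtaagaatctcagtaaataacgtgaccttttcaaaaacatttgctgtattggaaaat

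The libraries held 57358372 to 74667822 tags, of which 28.2% to 30.5% lay in peaks. Each aligned mate of a read pair counts as 0.5 tag, and normalised tags are tags divided by the size factor of the library. Tamoxifen replicate 4 stood apart from its group: over all peaks, chi-square per degree of freedom was 2.66 and 2.68 between it and the other tamoxifen libraries, 1.49 between these, and 1.04 to 1.22 between oil libraries. The peak at the Usp18 start differed by 0.03 on the log2 scale, which does not check the deletion because the sources used here do not place the removed exons on it. Of 6 progenitor and myeloid leukaemia genes, all had a start-site peak, as did 2 of 5 T cell, 2 of 5 B cell, 5 of 5 erythroid and 2 of 6 mature myeloid genes. Summed start-site tags of the progenitor genes were 1865 to 1888 after oil and 1936 to 2308 after tamoxifen. Among these genes Cd34, a surface marker of progenitor cells, held 73.9, 92.6 and 117 tags after oil and 265, 333 and 212 after tamoxifen, a log2 change of 1.50 (DESeq2 adjusted p = 8.32e-12), and no other start-site peak of a marker passed. The nearest peak of the T cell gene Cd3d, 4851 bp from its start, also passed but is not in the sums. It held 220, 231 and 213 tags after oil and 329, 426 and 333 after tamoxifen (log2 change 0.71, DESeq2 adjusted p = 3.74e-05). The sums of the erythroid genes were 1565 to 1659 after oil and 1378 to 1552 after tamoxifen, and those of the mature myeloid genes 98.0 to 108 and 126 to 184. The T cell sums were 39.7 to 68.3 and 59.1 to 75.9, and the B cell sums 122 to 145 and 131 to 169. Whether such cells had a part in any value below was not tested, and in bulk samples a smaller share of open cells and less accessible chromatin per cell cannot be told apart.

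Across the 10 genes, accessibility at the start sites did not differ detectably between treatments. Farther peaks mostly held fewer tags after tamoxifen at Dnajb4, Bag3 and Ahsa1 and more along the body of Dnaja1. Of the farther peaks, 7 of 14 at Bag3, 5 of 10 at Ahsa1 and 3 of 18 at Dnajb4 were in the oil peak list only. Entry through that list alone favours lower values after tamoxifen. None at Bag3 or Ahsa1 had an adjusted p under 0.05. In the DESeq2 fit of all peaks, 1 member peak had fewer tags at an adjusted p under 0.05, in Dnajb4, where 0.167% of all peaks did. 1 had more tags, in Dnaja1, where 1.22% of all peaks did. A count of 1 in 132 peaks is too small to set the members apart from that background. None of the 132 passed with a fold change over 2, against 0.654% of all peaks in either direction. Without tamoxifen replicate 4, 2 member peaks fell and 4 rose. In that fit 2508 of all 175929 peaks fell and 4021 rose, so the added calls were general and do not set the members apart. Leaving out oil replicate 1 or 4 or tamoxifen replicate 3 gave no call. Leaving out oil replicate 2 or tamoxifen replicate 1 gave the Dnajb4 call alone.

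At an unadjusted p under 0.05, 10 member peaks were lower, against 2.84% of all peaks, and 6 were higher, against 6.18%. The 10 comprised 5 of Dnajb4, 2 of Bag3, 2 of Ahsa1 and 1 of Hspa4l, and the 6 comprised 4 of Dnaja1 and 2 of Hspb1. All tamoxifen libraries lay below all oil libraries at 26 of the 132 peaks (19.7%), against 10.0% of all peaks, and above them at 11 (8.33%), against 11.9%. Among farther peaks the lower ones numbered 23 of 98 (23.5%), where 10.4% of all peaks over 3000 and up to 30000 bp from a start were so placed. Of the 98, 24 (24.5%) were in the oil peak list only, against 19.8% of all peaks at these distances. In the tamoxifen list only were 8 (8.16%), against 11.3%. Entry through the oil list alone favours lower values after tamoxifen, so these counts are not independent of how the peaks were found. Without tamoxifen replicate 4, 37 member peaks lay below and 26 above, against 21.6% and 22.1% of all peaks. The median log2 change was -0.03 over the 34 promoter-proximal and -0.16 over the 98 farther peaks, beside -0.01 over all peaks in each of the same distance ranges. With each library left out, the first ranged from -0.07 (tamoxifen replicate 3) to -0.01 (oil replicate 1 or tamoxifen replicate 4), and the second was -0.10 without oil replicate 4. Peaks of 1 gene are neighbours in the same chromatin and are not independent, and no test was made over the list.

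At the start sites, the libraries of both groups held similar tags. Hspa4 and Hspa4l encode HSP110-type relatives of HSP70 that act as nucleotide exchange factors. The Hspa4 peak (chr11:53300417-53300638) held 815, 786 and 766 normalised tags after oil and 782, 795 and 763 after tamoxifen, a log2 change of -0.02 (SE 0.08). The Hspa4l peak (chr3:40745297-40745498) held 632, 574 and 563 after oil and 578, 615 and 547 after tamoxifen, also a log2 change of -0.02 (SE 0.09). The groups overlapped at both genes.

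Dnaja1 and Dnajb4 encode J-domain proteins, which bring clients to HSP70 and stimulate its ATPase. The Dnaja1 peak (chr4:40722294-40722672), which holds the 3-unit element printed above, carried 1119.6, 1114 and 1022 tags after oil and 1124, 1166 and 1066 after tamoxifen. Its log2 change was 0.04 (SE 0.07), and the groups overlapped. The Dnajb4 peak (chr3:152193714-152193916) held 549.9, 503 and 504 tags after oil and 488, 497 and 469.8 after tamoxifen. All tamoxifen libraries were lower here, yet the log2 change of -0.10 (SE 0.09) had an adjusted p of 0.896.

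Hspb1 encodes a small heat shock protein that holds unfolded clients, and Bag3 a nucleotide exchange factor that links HSP70 to small heat shock proteins and to autophagy. Hspb1 had the least accessible start of the 10, with 48.5, 69.7 and 65.0 tags after oil and 75.9, 66.9 and 75.4 after tamoxifen (chr5:135887633-135887970). Its log2 change of 0.24 (SE 0.24) had the smallest adjusted p of all start sites, 0.894. The Bag3 peak (chr7:128523384-128523660) held 705, 695 and 655 tags after oil and 636, 684 and 649 after tamoxifen, a log2 change of -0.06 (SE 0.09). The groups overlapped at both.

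The remaining genes encode partners of HSP90: Stip1 (HOP) bridges HSP70 and HSP90, Ahsa1 (AHA1) stimulates the HSP90 ATPase, Chordc1 is a zinc-binding cochaperone and Cacybp binds S100 proteins and ubiquitin ligase components. The Stip1 start held 1128, 1067 and 979.7 tags after oil and 1088, 1141 and 1018 after tamoxifen (chr19:7039928-7040233), a log2 change of 0.03 (SE 0.08). The Ahsa1 start held 691, 648 and 623 after oil and 628, 661 and 611 after tamoxifen (chr12:87266582-87266803), a change of -0.04 (SE 0.09). The groups overlapped at both. The Chordc1 start, over the printed triple element, held 659, 683 and 673 after oil and 711, 694 and 670.0 after tamoxifen (chr9:18291993-18292323), a change of 0.04 (SE 0.08). The Cacybp start held 1159.9, 1095 and 1037 after oil and 1047, 1165 and 1005 after tamoxifen (chr1:160212745-160213037), a change of -0.03 (SE 0.08). Over the 10 start sites the median log2 change was -0.02, and the 95% intervals of the changes ran from -0.28 at the lowest to 0.71 at the highest, the latter at Hspb1.

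The other promoter-proximal peaks differed between the J-protein genes. All 7 promoter-proximal peaks of Dnaja1 were above 0, with a median log2 change of 0.25, and all 5 of Dnajb4 were below 0, with a median of -0.18. Cacybp had 4, all below 0, with a median of -0.12. None of the 34 promoter-proximal member peaks passed the test with DESeq2 or edgeR, and 0 were lower and 1 higher at an unadjusted p under 0.05.

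**Figure D1:**
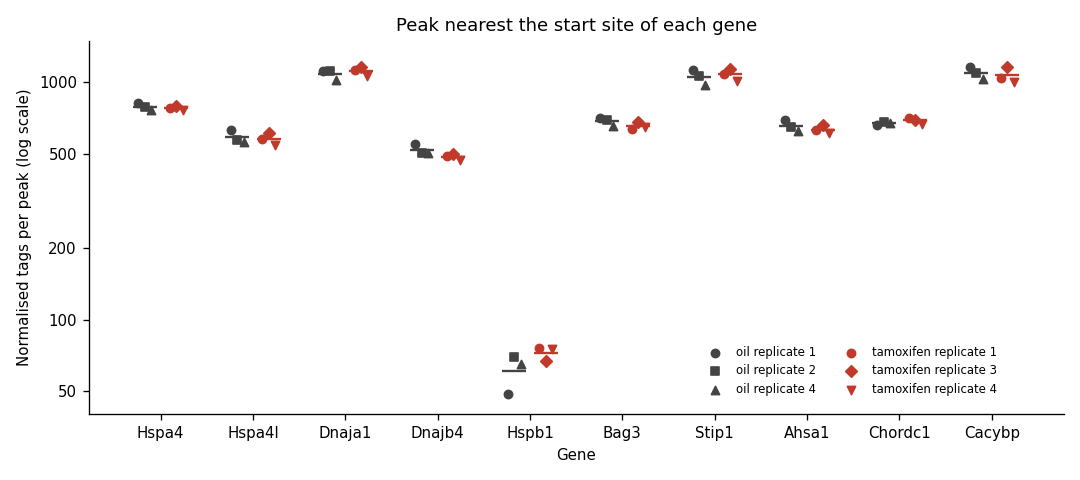
Normalised tags (log scale) at the peak nearest the start of each gene, with 1 point per library (oil dark, tamoxifen red) and a line at each group mean. The means after oil run from 61.1 for Hspb1 to 1097 for Cacybp, and the libraries of each gene lie close together in both groups.

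Away from the start, Dnajb4 mostly held fewer tags after tamoxifen. Of its 18 farther peaks, 17 had a log2 change below 0, the median was -0.31, and all tamoxifen libraries lay below all oil libraries at 7. The passing peak lies in the 3′ UTR of the last exon, 11626 bp after the start (chr3:152181777-152182662). It held 162, 148 and 179.6 tags after oil and 101, 97.5 and 98.2 after tamoxifen. The tamoxifen libraries were nearly equal and all far below the oil libraries. The log2 change was -0.72 (SE 0.17, 95% interval -1.06 to -0.38, DESeq2 adjusted p = 0.00471). When a single library was left out, the adjusted p rose to 0.0842 (oil replicate 1), 0.186 (oil replicate 4) or 0.0681 (tamoxifen replicate 3).

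The neighbouring peaks at the Dnajb4 end had changes of the same sign. The peak at the transcript end, 12829 bp after the start and the highest of the farther Dnajb4 peaks, held 198, 209 and 229 tags after oil and 173, 138 and 168 after tamoxifen, a log2 change of -0.41 (SE 0.15, adjusted p = 0.192). The peak 13651 bp after the start held 91.0, 113 and 102 after oil and 70.6, 59.1 and 55.4 after tamoxifen, a log2 change of -0.72 (SE 0.22, adjusted p = 0.0589). Neither group overlapped the other at these peaks. A peak 3573 bp before this start, in the first intron of a longer transcript, held 150.02, 167 and 163 after oil and 108, 95.8 and 131 after tamoxifen, again without overlap (log2 change -0.52, adjusted p = 0.129). With edgeR's quasi-likelihood test, these 3 peaks also passed, at adjusted p of 0.0488, 0.0179 and 0.0381. That test called more peaks in general, 917 of all 175929 being lower, where DESeq2 called 294.

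The peaks of the Dnajb4 first intron were different in spread. Grouped after their values were seen, the 7 peaks 3107 to 6840 bp after the start summed to 523, 429.5 and 666 tags after oil and 350.4, 592 and 517 after tamoxifen, and none separated the groups. The 3 farther peaks before the start, in the longer transcript, summed to 218, 229.6 and 241 after oil and 166, 142 and 191 after tamoxifen, a ratio of the means of 0.723 without overlap, and the peak at 3573 bp held most of these tags. The 8 peaks from the last intron, 7570 bp after the start, to the gene end summed to 921, 857 and 958 after oil and 675, 611 and 680.2 after tamoxifen, a ratio of the means of 0.719. Here the sums did not overlap, and 6 of the 8 peaks separated the groups.

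Dnaja1 showed higher values along the gene and lower ones past its end. The passing peak lies in intron 5 of 8, 6317 bp after the start (chr4:40728889-40729606). It held 136, 122 and 133 tags after oil and 216, 213 and 154 after tamoxifen, so that all tamoxifen libraries were higher, with replicate 4 nearest to the oil libraries. The log2 change was 0.57 (SE 0.17, 95% interval 0.25 to 0.90, DESeq2 adjusted p = 0.0465). This call did not hold without any 1 of oil replicates 1, 2 and 4 or tamoxifen replicates 1 and 3 (adjusted p 0.229, 0.379, 0.273, 0.468 and 0.568), whereas without tamoxifen replicate 4 the change was 0.72 (adjusted p = 0.00104).

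All 12 farther peaks in exons and introns 4 to 8 of Dnaja1 had a log2 change above 0, from 0.18 to 0.68. Together they summed to 805, 793 and 839.5 tags after oil and 1181, 1191 and 888 after tamoxifen, a ratio of the means of 1.34. The sums did not overlap, and tamoxifen replicate 4 was again the lowest of its group. An exonic peak 5178 bp after the start held 63.4, 60.5 and 82.4 after oil and 106, 129 and 89.4 after tamoxifen (log2 change 0.64, SE 0.22, adjusted p = 0.144). The 4 peaks from the 3′ UTR to the gene end summed to 454, 444 and 535 after oil and 633, 373 and 336 after tamoxifen, with tamoxifen replicate 1 above and the others below every oil library. The 4 peaks past the end, which overlap the neighbouring gene Smu1, all had a change below 0, with a median of -0.39, and their sums overlapped between groups. The highest farther Dnaja1 peak, 12792 bp after the start, lies in the longest Dnaja1 extent. It is annotated to the end of the transcript that the peaks over Smu1 are annotated to, and the peak at 13439 bp to the 3′ UTR of that transcript. The highest peak held 188, 176 and 209.7 after oil and 222, 116 and 127 after tamoxifen, which overlapped (log2 change -0.30, SE 0.31).

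**Figure D2:**
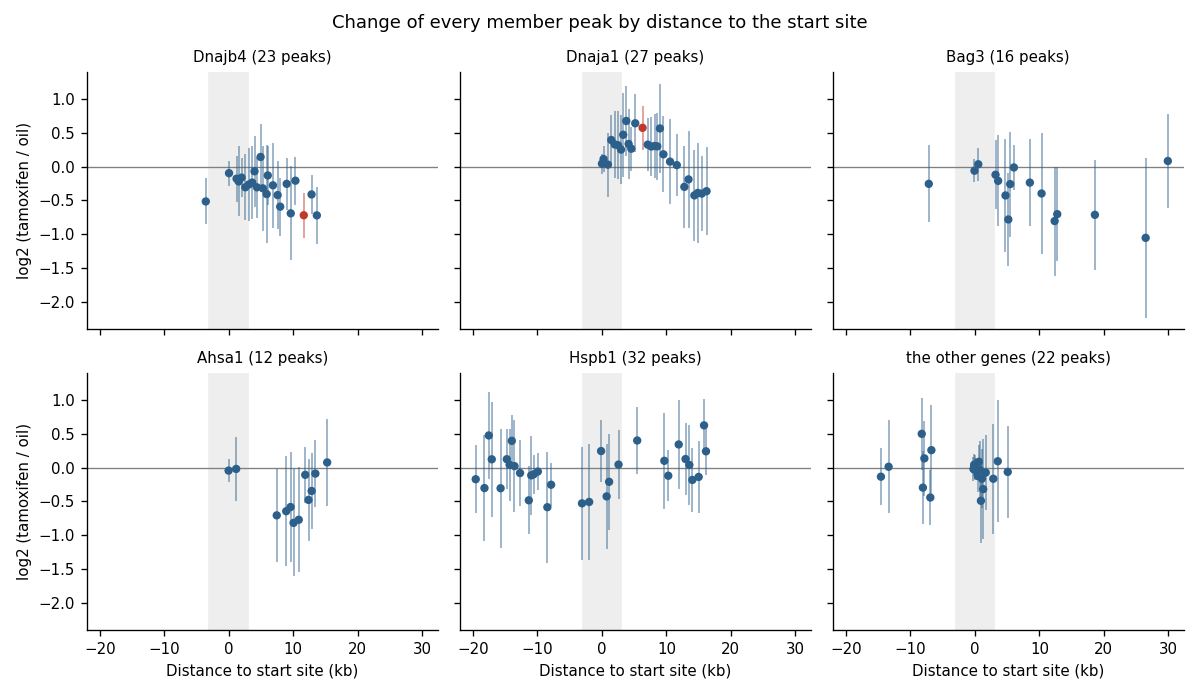
Log2 change (tamoxifen over oil) with its 95% interval for every member peak against its distance to the start in kb, measured as in the deposited table, with the promoter-proximal range shaded and peaks at an adjusted p under 0.05 in red. Values lie near 0 at the starts and mostly below 0 away from them at Dnajb4, Bag3 and Ahsa1. They lie above 0 across the Dnaja1 body before turning below 0 past its end. At Bag3 and Ahsa1, 7 of 14 and 5 of 10 farther peaks were in the oil peak list only, which favours values below 0.

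Bag3 had 14 farther peaks, of which 13 had a log2 change below 0, with a median of -0.33. The median was -0.50 without tamoxifen replicate 4. Tamoxifen libraries were all below oil libraries at 6 of the 14, all inside the gene, where 10.4% of all peaks at these distances were so placed. None of the 14 passed the test. The Bag3 peak with the smallest p, in intron 1 of 3 at 5182 bp, held 34.2, 37.1 and 43.5 tags after oil and 17.4, 20.1 and 28.9 after tamoxifen (log2 change -0.78, SE 0.35, adjusted p = 0.429). Most of these peaks were shallow. The highest, in the same intron at 6051 bp, held 172, 199 and 189 after oil and 152, 162 and 240.2 after tamoxifen, with replicate 4 above all oil libraries and a log2 change of -0.01 (SE 0.17). The 11 peaks in the gene summed to 479, 515 and 537 after oil and 393, 370.5 and 511 after tamoxifen, and the sums overlapped. 7 of the 14 farther peaks were in the oil peak list only, against 17.4% of all peaks. Entry through the oil list alone favours lower values after tamoxifen at these peaks.

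All 10 farther Ahsa1 peaks lay past the end of the gene, and 9 had a log2 change below 0, with a median of -0.53. The median was -0.30 without tamoxifen replicate 3. None passed the test, and the smallest adjusted p was 0.521. The 5 peaks between the Ahsa1 end and the neighbouring gene Ism2 summed to 141, 143 and 167 tags after oil and 90.4, 69.6 and 115 after tamoxifen, a ratio of the means of 0.610. These sums did not overlap. All 5 peaks were in the oil peak list only, so they entered the table through the group in which they are higher. That selection favours lower values after tamoxifen, so the separation is not independent support for a difference. The 5 peaks over Ism2 summed to 311, 304 and 332 after oil and 255, 249 and 337 after tamoxifen, with replicate 4 above the oil libraries. Among these was the highest farther peak of Ahsa1, at 11855 bp, with 132, 132 and 128 tags after oil and 89.9, 103 and 169.9 after tamoxifen (log2 change -0.11, SE 0.21). The Ahsa1 peak with the printed 3-unit element held 30.3, 29.3 and 37.2 after oil and 33.8, 30.1 and 39.6 after tamoxifen, which overlapped (log2 change 0.08, SE 0.33).

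Hspb1 had the most farther peaks, 27, and they moved both ways, with 14 below and 13 above 0 and a median of -0.06. This median was 0.04 without tamoxifen replicate 4, -0.04 without oil replicate 4 or tamoxifen replicate 3, -0.10 without tamoxifen replicate 1 and -0.11 without oil replicate 1. The 8 peaks between the upstream gene Srrm3 and the Hspb1 start were all below 0 and summed to 795, 808 and 796 tags after oil and 742, 645 and 725 after tamoxifen, without overlap. Their highest, 9929 bp before the start, held 215, 206 and 194 after oil and 209, 185 and 194 after tamoxifen, and did overlap (log2 change -0.06, SE 0.14). The 9 peaks over Srrm3 and the 10 past the Hspb1 end overlapped in their sums, with ratios of the means of 1.09 and 1.13. Past the end, a peak at 15849 bp held 95.4, 96.5 and 126 after oil and 193, 181 and 117 after tamoxifen (log2 change 0.63, SE 0.20, adjusted p = 0.0954), and passed without tamoxifen replicate 4 (0.82, adjusted p = 0.00107). The adjoining Hspb1 peak with the printed 3-unit element, at 16149 bp, held 106, 98.0 and 114 after oil and 130.0, 122 and 122 after tamoxifen, without overlap (log2 change 0.24, SE 0.18, adjusted p = 0.810).

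**Figure D3:**
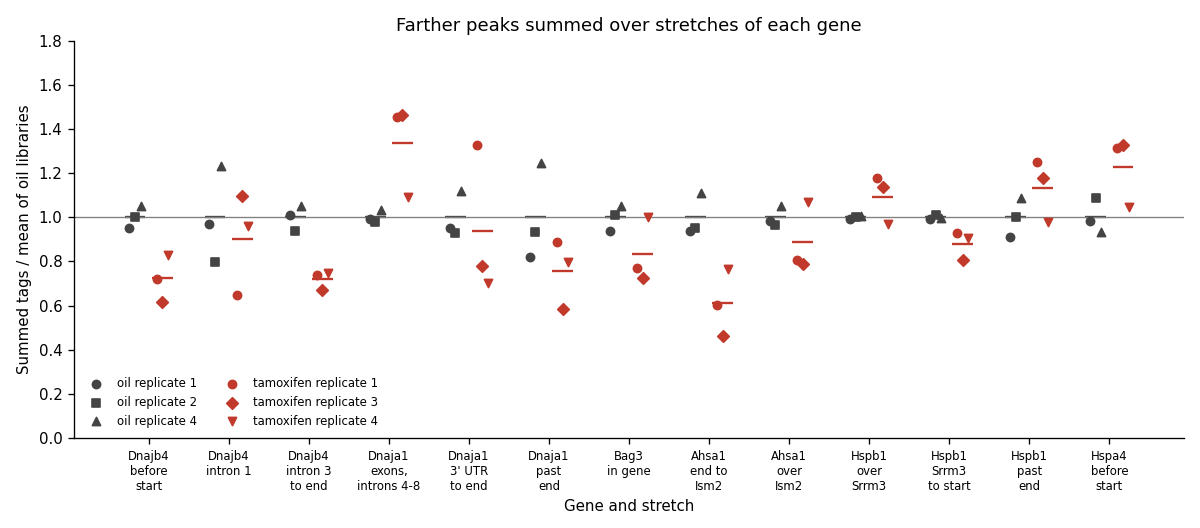
Tags summed over the farther peaks of a stretch, divided by the mean of the oil libraries, with 1 point per library (oil dark, tamoxifen red) and a line at each group mean. The groups do not overlap before the Dnajb4 start (ratio 0.723), at the Dnajb4 end (0.719), the Dnaja1 body (1.34), between Ahsa1 and Ism2 (0.610) and between Srrm3 and the Hspb1 start, and tamoxifen replicate 4 often lies nearest the oil libraries. All 5 peaks between Ahsa1 and Ism2 were in the oil peak list only, which favours a ratio below 1.

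The other genes had few farther peaks. The 4 of Hspa4 were all above 0, with a median log2 change of 0.20, and leaving out 1 library moved this median to 0.13 (tamoxifen replicate 1), 0.31 (oil replicate 2) or 0.36 (tamoxifen replicate 4). At 8245 bp before the start, Hspa4 held 43.0, 32.7 and 52.4 tags after oil and 61.4, 59.6 and 59.6 after tamoxifen, without overlap (log2 change 0.50, SE 0.27, adjusted p = 0.607). The highest farther Hspa4 peak, at 7835 bp before the start, held 52.9, 58.5 and 38.1 after oil and 64.8, 58.5 and 40.5 after tamoxifen, and overlapped. The single farther peak of Hspa4l, 6913 bp before its start, held 121, 92.6 and 101 after oil and 69.1, 75.8 and 85.2 after tamoxifen, without overlap (log2 change -0.44, SE 0.21, adjusted p = 0.461). Chordc1 had 2 farther peaks, both before the start, with changes of -0.14 and 0.01. The higher of them, at 14572 bp, held 93.8, 102 and 74.8 after oil and 93.8, 80.2 and 72.6 after tamoxifen. Stip1 had 2, with changes of -0.30 and -0.06, and the higher, 8064 bp before the start, held 44.7, 63.9 and 56.9 after oil and 52.7, 40.7 and 43.3 after tamoxifen. The groups overlapped at these Chordc1 and Stip1 peaks, and Cacybp had none beyond 3000 bp.

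**Figure D4:**
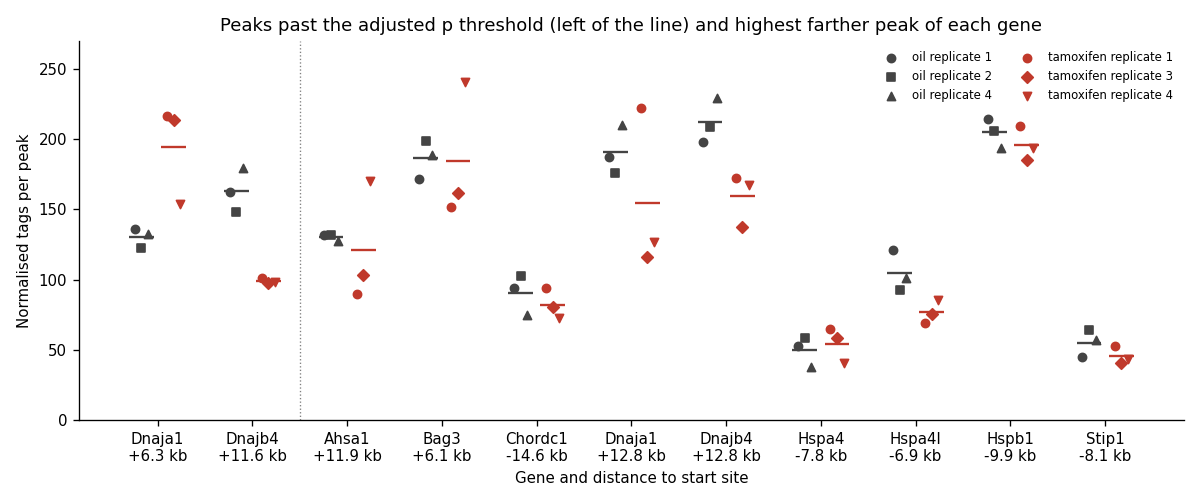
Normalised tags in the member peaks at an adjusted p under 0.05 (left of the dotted line) and in the highest farther peak of each other gene and of these genes, with 1 point per library (oil dark, tamoxifen red) and a line at each group mean. The Dnaja1 peak of intron 5, both Dnajb4 peaks and the Hspa4l peak do not overlap between groups, whereas the highest farther peaks of Ahsa1, Bag3, Dnaja1 and Hspa4 have a tamoxifen library above every oil library and those of Chordc1, Hspb1 and Stip1 overlap without one.

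Farther and promoter-proximal tags were then compared within each library, where the scaling of the library cancels. For Dnajb4, the log2 ratio of summed farther over summed proximal tags was 0.63, 0.66 and 0.79 after oil and 0.45, 0.41 and 0.58 after tamoxifen, and the groups did not overlap. For Hspa4l it was -2.54, -2.82 and -2.68 after oil and -3.25, -3.17 and -2.90 after tamoxifen, also without overlap, but on 1 farther peak. For Hspa4 it ran the other way, with -2.98, -2.70 and -2.86 after oil and -2.49, -2.57 and -2.69 after tamoxifen, the closest libraries being almost equal. For the other genes with farther peaks the groups overlapped, as they did for all 10 genes together (-0.69 to -0.47 after oil and -0.76 to -0.58 after tamoxifen).

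By position, whatever gene the table named, 113 peaks over 3000 bp from any start lay within 15000 bp before a member start, inside a member gene or within 15000 bp past its end. The 25 before a start had a median log2 change of -0.08, the 49 inside a gene -0.24 and the 39 past an end -0.36. Over all peaks more than 3000 and up to 30000 bp from a start it was -0.01. In the oil peak list only were 33.3% of those past an end, 24.5% inside a gene and 3 of the 25 before a start. The share was 19.8% of all peaks at these distances. Entry through that list alone favours lower values after tamoxifen, so these medians are not independent of how the peaks were found. Past the Dnajb4 end, all 8 such peaks were below 0, with a median of -0.62, and past the Dnaja1 end all 6 were, with a median of -0.41. Of these, 5 of the 8 and 2 of the 6 were in the oil peak list only, which favours values below 0. Past the Hspb1 end, 7 of 10 were above 0, and 2 of the 10 were in the tamoxifen list only. In these windows only the named Dnajb4 and Dnaja1 peaks passed the test.

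Just inside the 30000 bp limit, the last member peaks were Bag3 peaks at 29925 and 26483 bp, with changes of 0.08 and -1.06. The first outside it were an Hspb1 peak 32541 bp before the start (0.21) and a Cacybp peak 33241 bp before the start (0.71), both above 0.

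The same distance rule was applied to other genes of the pathway. At the major heat shock loci, which include Hspa1a, Hspa1b, Hsph1, Hsp90aa1 and Dnajb1, 75 of 255 peaks fell and 0 rose, with a median log2 change of -0.68. Of all peaks, 0.167% fell and 1.22% rose. Of these 255 peaks, 106 (41.6%) were in the oil peak list only, against 17.4% of all peaks, which favours lower values after tamoxifen. Their lowest adjusted p was at the Hsph1 end, with 153, 141 and 210.1 tags after oil and 35.3, 23.95 and 48.4 after tamoxifen (log2 change -2.21). These calls comprised 32 of 66 Hsph1 peaks, 19 of 36 of Dnajb1, 10 of 15 of Hspa1b and 6 of 12 of Hspa1a. The rest were 5 of 53 Hspa8 peaks, 2 of 27 of Hspd1 and 1 of 17 of Hsp90ab1. Hsp90aa1 had 0 of 28 and Hspa1l 0 of 1, and 9 of the 10 genes had a peak. Of the start-site peaks at these loci, only those of Hspa1a (log2 change -0.50, DESeq2 adjusted p = 0.0186) and Hspa1b (-0.42, 0.00720) passed. Of 13 peaks of the heat shock factor genes Hsf1, Hsf2, Hsf4 and Hsf5, 0 passed with DESeq2 or edgeR and 0 had an unadjusted p under 0.05. Of 21 peaks named for Hsbp1, which encodes a protein that binds heat shock factor 1, 2 rose, and the one with the smaller adjusted p lies in an intron of Cdh13 (log2 change 1.48). Of 75 peaks of other HSP90 cochaperones, 1 rose, at the Fkbp5 start, with 159, 179.9 and 163 tags after oil and 256, 247 and 218 after tamoxifen (0.52, adjusted p = 0.0234). Of 105 peaks of ubiquitin genes of the heat shock response, 1 rose, near Sqstm1 over the gene Mgat4b (0.85, adjusted p = 0.0383), whereas with edgeR 0 rose and 1 fell. None passed with DESeq2 or edgeR among 98 peaks of other HSP70 cochaperones, 18 of other small heat shock proteins and 31 of the TRiC chaperonin, with medians of -0.08, 0.08 and -0.08 and with 2, 3 and 1 lower and 1, 1 and 0 higher at an unadjusted p under 0.05. All tamoxifen libraries lay below all oil libraries at 20 of the 98 peaks of other HSP70 cochaperones (20.4%), a share like the 19.7% of members. This share was 60.4% at the major loci, 5.88% for heat shock factors with Hsbp1 and 6.67% for other HSP90 cochaperones. It was 11.1% for other small heat shock proteins, 9.68% for TRiC and 10.5% for the ubiquitin genes, against 10.0% of all peaks. The difference between the members and these lists was not tested.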

How the data were processed

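Each library was an ATAC-seq library of sorted cells (3 oil, 3 tamoxifen). The study's methods give 3 mice per treatment, its reporting summary 2 biological replicates for ATAC-seq, and the labels tie no library to a mouse, so p-values measure the spread between libraries. Per the labels and methods, the authors aligned reads to mm10 with Bowtie2, called peaks with HOMER, merged the peak lists of the groups and deposited estimated counts: unnormalised tags per peak in steps of 0.5 (0.5 per mate, at most 3 per position). Tool versions are not given in the sources used here.

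Tags were rounded to whole counts and fitted over all 175929 peaks with DESeq2 1.42.0 in R 4.3.3 (Wald test, median-of-ratios size factors, Benjamini-Hochberg adjustment). edgeR 4.0.16, other size factors, a filter of at least 10 tags in at least 3 libraries, separate fits, each library left out and a replicate block were alternatives. Annotations are the authors', and gene extents are from GENCODE on GRCm38. Intervals are 95% normal intervals from the SE.

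The text names, for each gene, the peak nearest the start, the highest farther peak and each peak at an adjusted p under 0.05, the peaks at the distance limit and the best passing peak of each other list. Further peaks and the stretches were chosen after their values were seen. The members and lists were chosen with earlier results of these data known.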

Additional observations from a re-analysis of the deposited data

How the results depend on the processing

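The number of member peaks with fewer tags at an adjusted p under 0.05 was 1. It was 4 with edgeR's quasi-likelihood test, which called 917 of all 175929 peaks lower, where DESeq2 called 294. It was 0 within 10000 bp of a start, 0 with a fold change over 2, 10 at an unadjusted p and 0 to 2 with each library left out. The number with more tags was 1, and 0 with size factors from total tags in peaks, 0 in separate fits of distal and promoter-proximal peaks, 0 with a fold change over 2, 6 at an unadjusted p and 0 to 4 with each library left out. Apart from the replicate block given below, each count was 1 under the settings not named for it. Both medians stayed below 0 and within the SD between libraries (0.05 and 0.07) under every alternative run, from -0.08 to -0.01 for promoter-proximal and from -0.17 to -0.10 for farther peaks.

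All peaks passing numbered 2448, against 5136 with edgeR and 629 to 6529 with a library left out, the most without tamoxifen replicate 4. Libraries sharing the numbers 1 and 4 did not deviate together (r = -0.04 and 0.05). Between oil libraries, chi-square per degree of freedom was only 1.04 to 1.22, so counting noise can hide a shared deviation. The 4 libraries were therefore not shown to pair, and pairing is not excluded. With a replicate block on these 4 libraries, 0 member peaks fell, 0 rose and 52 of all peaks passed, and Ahsa1's farther median was -0.34. The cause of these differences was not tested beyond the smaller number of libraries.

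Of 273 values of the named peaks, 242 kept direction and side of the threshold, 12 lost the call, 1 gained it and 18 changed sign, all 18 at peaks with an adjusted p over 0.9. The Hspa4 start became 0.0025 in separate fits, the highest farther Bag3 peak 0.00027 with total mapped tags and 0.088 with the block, and the Stip1 start -0.0014 with the block. With each library left out, the ranges were -0.037 to 0.0070 at the Hspa4 start, -0.035 to 0.31 at its highest farther peak, -0.065 to 0.028 at the Hspa4l start, -0.021 to 0.081 at the Stip1 start, -0.097 to 0.012 at the Cacybp start, and -0.25 to 0.11 and -0.44 to 0.069 at the highest farther Bag3 and Ahsa1 peaks. The farther medians of single genes and the counts without overlap under other settings were computed after seeing the data. Depth limits peaks with few tags: medians over all peaks were 45.0 to 57.0 tags.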
